A study of Rosa roxburghii with 15 samples.

Results

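The 3 libraries of mature fruit of Rosa roxburghii were compared with the 3 libraries of young fruit, which are 6 of the 15 libraries in which RNA-seq was used to measure the transcripts of 5 tissues. Young fruit was picked 50 days and mature fruit 120 days after flowering, both from healthy plants raised outdoors in pots from wild seedlings, for which no treatment is given. All 63727 unigenes of the assembly were listed for every library, as FPKM, the number of aligned fragments scaled to the length of the unigene and to the size of the library. The young fruit was harvested in July and the mature fruit in September, so that stage and month cannot be told apart. The labels speak of 2 biological replicates with 3 plants each, the methods of 3 biological replicates. Each library was taken as a sample of its own, so that a p-value here covers the spread between libraries alone, some of which may be technical.

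MYB proteins are transcription factors that bind DNA through a repeated helix-turn-helix domain. In fruit of the rose family they are best known as activators and repressors of the phenylpropanoid pathway, from which anthocyanins, flavonols, tannins and lignin are made. Other members act in the epidermis, in secondary walls, in flower organs and in stress responses. The study gave a list of unigenes taken as MYBs, which are named here after their best match in other plants, so that a role is that of the match and was not tested in R. roxburghii. The other unigenes carry no gene name in the sources used here. For that reason the fruit identity of the libraries could not be checked against markers. The MYBs were placed in groups by the known role of the best match.

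Of the 12 MYBs with primers for qRT-PCR, 3 passed the thresholds on size and adjusted p given below. Over all unigenes tested, 30.2% passed. The 3 were MYB4 and MYB3, which rose, and EFM, which fell. Among the other primer MYBs, MYB12, the MYB44-like DN143203_c0_g1 and the putative MYB DN143733_c1_g1 missed the threshold on size alone. The primers of MYB4, MYB3 and EFM are shown because they identify these 3 unigenes in an assembly without a genome. All sequences run from 5′ to 3′ and no stretch is singled out by capitals.
MYB4 (DN142862_c0_g1) sense: ggtgtgccagtaattcttgat
MYB4 (DN142862_c0_g1) antisense: gttgtagacttcgttggatga
MYB3 (DN147128_c3_g4) sense: aatcacaaccaccaccaacac
MYB3 (DN147128_c3_g4) antisense: gcttcagatagacatcacattcca
EFM (DN146463_c1_g1) sense: tgctgctgtgaacctccaa
EFM (DN146463_c1_g1) antisense: tccttctctgctgccaatgt

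The libraries grouped by stage. Across unigenes, Pearson's r of log2(FPKM + 0.1) was 0.945 to 0.950 within young fruit, 0.943 to 0.964 within mature fruit and 0.815 to 0.832 between the stages. Young fruit libraries listed 43593 to 44904 unigenes above 0 FPKM and mature fruit libraries 36595 to 39454. Mature fruit 1 stood apart from the other mature fruit libraries, because mature fruit 2 and 3 shared 2792 unigenes that were at 0 in every other library and made up 0.966% and 0.841% of their summed FPKM. Leaving out mature fruit 1 gave 4094 unigenes higher and 11130 lower, against 4127 and 11316 with all libraries. The 2792 unigenes could not enter any of these counts, as the test required more than 0.1 FPKM in at least 3 libraries. A further setting left out unigenes above 0 in mature fruit 2 and 3 and at 0 in at least 12 of the other libraries. It gave 3599 higher and 11306 lower of 50474 tested. Sequence of another organism could be looked for only through the 3 listed MYBs that match insect proteins best. Their sum was 0 in all young fruit libraries and in mature fruit 1, 0.694 FPKM in mature fruit 2 and 1.42 in mature fruit 3. The part of such material in the results was not tested.

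Fruit expression was lower at maturity for more unigenes than it was higher. A unigene was called when its Benjamini-Hochberg adjusted p (limma, fitted across all unigenes tested) was at most 0.01 and its log2 fold change at least 1 in size. Of 51175 unigenes tested, 4127 (8.06%) were higher and 11316 (22.1%) lower in mature fruit, or 30.2% in either direction. Among those tested, 4556 had passed the filter on low values through the 3 young fruit libraries alone, and 4519 of them were called lower. Through the 3 mature fruit libraries alone 777 had passed, and 771 of them were called higher. These calls follow in large part from the filter, and the shares of all unigenes given below include them. The median log2 fold change over all unigenes tested was -0.12. The excess of lower calls was largest among low values. Among unigenes whose mean in the higher stage was below 1 FPKM, 981 rose and 6085 fell, or 86.1% of those called. Between 10 and 100 FPKM 1061 rose and 1374 fell, so that the lower ones made up 56.4%. The filter on low values was also read from leaf, stem and flower alone, without any fruit library. It then gave 2599 unigenes (6.46%) higher and 5360 (13.3%) lower of 40214 tested. This filter was chosen after seeing the data, and whether it favours a fruit stage was not tested. With a pseudocount of 1 in place of 0.1, 2495 (4.88%) were higher and 4393 (8.58%) lower.

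**Figure D1:**
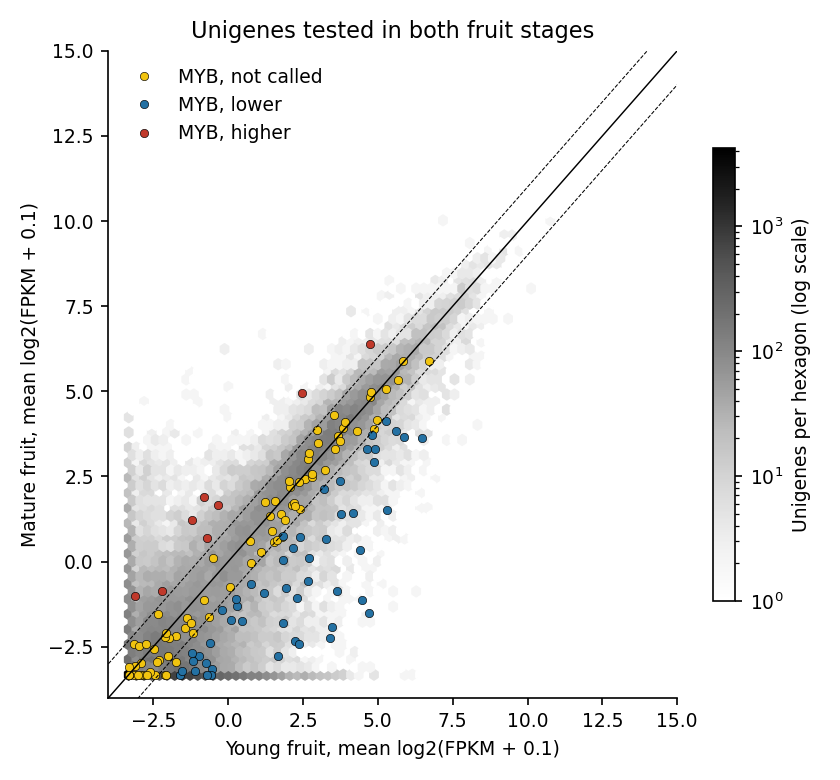
Mean log2(FPKM + 0.1) of the 3 libraries in young fruit (horizontal) and mature fruit (vertical) for the 51175 unigenes tested, with grey hexagons shaded by the number of unigenes on a log scale and MYBs as coloured points. The solid line marks equal levels, the dashed lines a log2 difference of 1, and the 50 blue MYBs called lower outnumber the 8 red ones called higher.

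Large changes were also unequal. A change of at least 16-fold on the log2(FPKM + 0.1) scale was found in 522 unigenes that rose and 1160 that fell, and one of at least 256-fold in 2 and 13. The unigene with the highest level in mature fruit had 2441, 3026 and 2942 FPKM in young fruit 1, 2 and 3 and 17703, 25997 and 25267 FPKM in mature fruit 1, 2 and 3. All mature libraries lay far above all young ones (log2 fold change 3.02, SE 0.19, adjusted p = 2.26e-08, limma), and its mean share of the summed FPKM was 0.517% in young and 4.53% in mature fruit. The unigene with the highest level in young fruit had 26330, 33096 and 17564 FPKM there and 8598, 10127 and 10875 FPKM in mature fruit. It fell by 1.34 on the log2 scale (SE 0.19, adjusted p = 5.28e-05, limma). Neither has a gene name.

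Many unigenes were listed in one stage and not in the other. In 6131 unigenes all young fruit libraries were above 0 and all mature fruit libraries at 0, of which 1041 had a young fruit mean of at least 1 FPKM and 57 of at least 10. The reverse held for 986 unigenes, of which 358 and 22 reached these means. A value of 0 says only that the unigene is listed at 0, as the files hold no counts. Some unigenes were listed at 0 in mature fruit and in no other tissue. There were 118 unigenes at 0 in all 3 mature fruit libraries and at 1 FPKM or more in each of the other 12 libraries, among them 21 at 5 FPKM or more and 7 at 10 or more. The corresponding number was 4 for leaf and 0 for stem, flower and young fruit. None of the 118 is a listed MYB, and their young fruit means ran from 1.36 to 96.5 FPKM with a median of 5.05.

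Among unigenes with at least 10 FPKM in every library of the higher stage, DN146011_c4_g2 and DN148994_c3_g1 had the lowest log2 fold changes. DN146011_c4_g2 had 87.5, 144 and 57.9 FPKM in young fruit and 0 in all mature fruit libraries, and 16.9 to 43.6 FPKM in leaf, stem and flower. DN148994_c3_g1 had 70.9, 88.1 and 68.4 FPKM in young fruit, 0 in mature fruit and 20.2 to 32.7 FPKM in the other tissues. At the other end, DN143619_c0_g7 had 0, 1.66 and 0 FPKM in young fruit and 76.1, 87.7 and 63.4 in mature fruit (adjusted p = 2.04e-06, limma). DN147428_c0_g2 had 0 in young fruit and 45.9, 18.2 and 21.7 FPKM in mature fruit. Both were at 0 in all leaf, stem and flower libraries. What these 4 unigenes encode is not known from the sources used here.

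MYBs were lower in mature fruit more often than higher. The list held 142 MYBs that were tested and 21 that were not. Of the 142, 8 (5.63%) were higher, 50 (35.2%) lower and 84 not called, where all unigenes gave 8.06% and 22.1%. The median log2 fold change over the MYBs tested was -0.60, and 105 of the 142 values (73.9%) lay below 0, against 56.8% over all unigenes tested. In 74 MYBs all mature fruit libraries lay below all young ones, and in 17 above, where the shares over all unigenes were 31.1% and 18.6%. No MYB had passed the filter on low values through the libraries of 1 fruit stage alone. The shares over all unigenes include such unigenes, so that they are not a like background for the MYBs. The 21 MYBs not tested were low in nearly all of the 15 libraries. Counted over the whole list, 20 MYBs were at 0 in all 6 fruit libraries, 9 of which were tested.

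The lower calls of the MYBs were not confined to low values. Among MYBs whose mean in the higher stage was 10 to 100 FPKM, 18 of 36 (50%) were lower and 2 higher, where 14.8% of all unigenes of that level were lower. At 1 to 10 FPKM 19 of 50 (38%) were lower and 4 higher, where 23.7% of all unigenes were lower. Below 1 FPKM 13 of 55 (23.6%) were lower, close to the 23.8% of all unigenes. Summed over the listed MYBs, the libraries had 1235, 1258 and 1266 FPKM in young fruit and 773, 767 and 753 FPKM in mature fruit. As a share of all FPKM this was 0.223% to 0.241% in young and 0.148% to 0.158% in mature fruit, with no overlap. FPKM values are relative, so that fewer cells with a transcript and less of it per cell cannot be told apart.

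**Figure D2:**
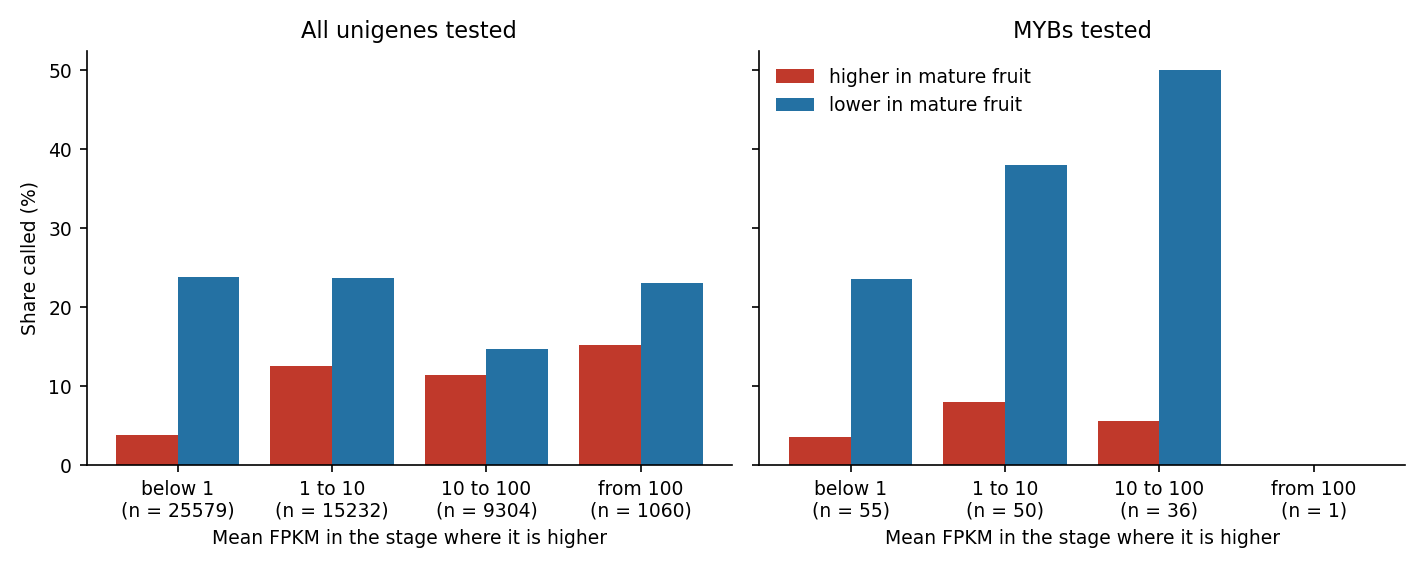
Share of unigenes called higher (red) or lower (blue) in mature fruit, in percent, by the mean FPKM of the stage in which the unigene was higher, for all unigenes tested (left) and for MYBs (right), with the number tested under each pair of bars. Between 10 and 100 FPKM 50% of the MYBs and 14.8% of all unigenes were lower.

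Of the 50 lower MYBs, 37 had a young fruit mean of at least 1 FPKM and 18 of at least 10. In 18 of them the mean went from at least 1 to below 1 FPKM. The fall was at least 4-fold in 27 and at least 8-fold in 13, on the log2(FPKM + 0.1) scale. Read against leaf, stem and flower, 32 of the 50 (64%) had their lowest mean of all 5 tissues in mature fruit, where this held for 70.3% of all unigenes called lower. Young fruit had the highest mean of the 5 tissues in 18 of the 50 (36%), against 66.3% of all unigenes called lower. Mature fruit was the highest in 6 of the 8 higher MYBs, against 85.6% of all unigenes called higher. The called unigenes were chosen for their direction between the fruit stages, so that high shares follow in part from the choice. The shares over all unigenes also include 4519 lower and 771 higher ones that passed the filter through that stage alone. These are highest in that stage by construction, and no MYB is among them, so that the shares cannot be set beside those of the MYBs.

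**Figure D3:**
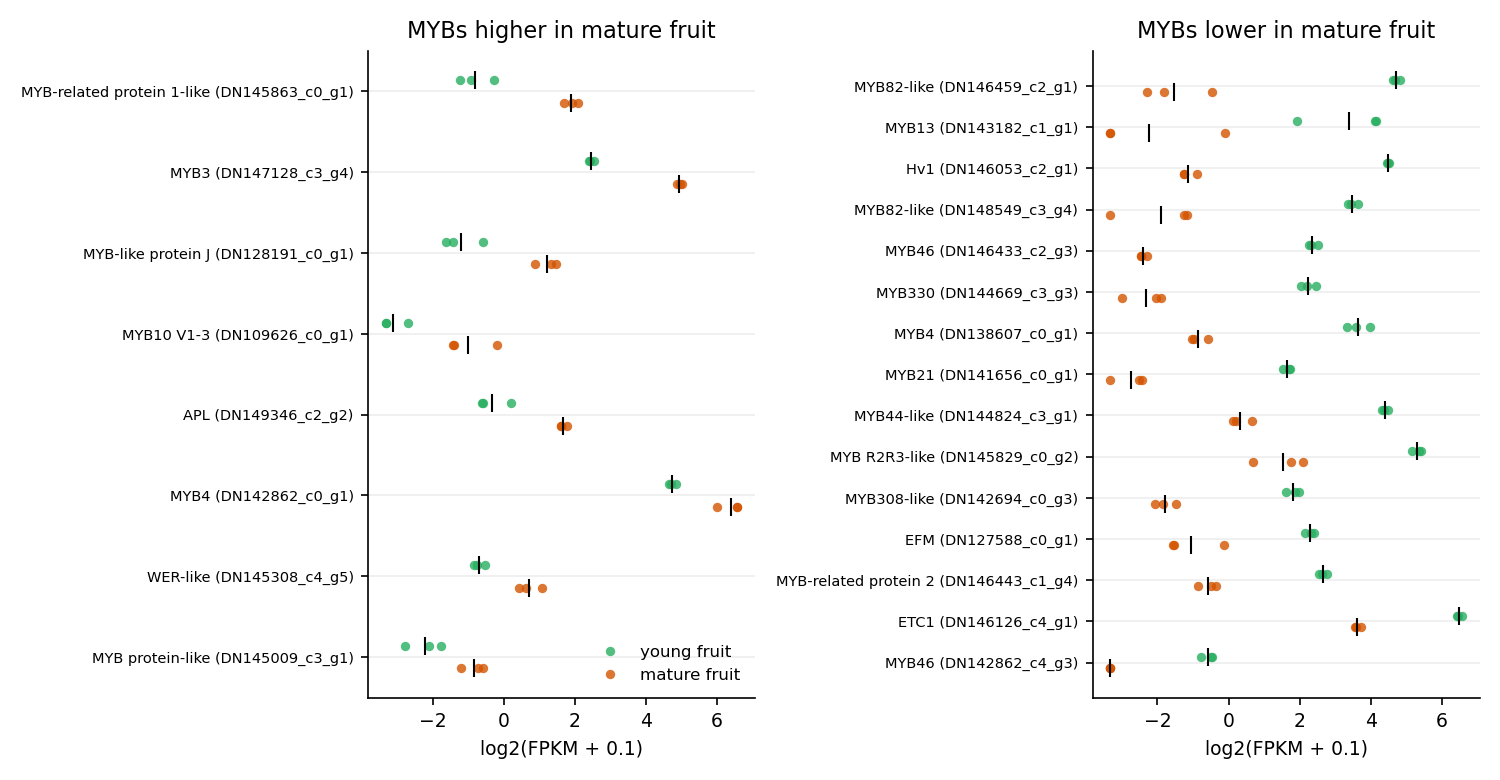
Values of single libraries as log2(FPKM + 0.1) for the 8 MYBs called higher in mature fruit (left) and the 15 MYBs without overlap that had the lowest log2 fold changes (right), with green points for the 3 young and orange points for the 3 mature fruit libraries and a black tick at each mean. In all of them the stages do not overlap, and MYB13 shows the widest spread within young fruit.

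The repressors of the phenylpropanoid pathway held both the MYBs with the highest levels that rose and several that fell. MYB4 represses genes of hydroxycinnamate synthesis in Arabidopsis. Its homolog DN142862_c0_g1 had 24.7, 28.8 and 25.8 FPKM in young fruit 1, 2 and 3 and 64, 95 and 94 in mature fruit 1, 2 and 3. Mature fruit 1 was the lowest of its stage, yet all mature libraries lay above all young ones (log2 fold change 1.65, SE 0.20, adjusted p = 1.35e-05, limma). With a mean of 84.3 FPKM it was the most abundant MYB of mature fruit, where it ranked 16 in young fruit. It stood below 2 FPKM in leaf, stem and flower. MYB3, another repressor in Arabidopsis, had as a homolog DN147128_c3_g4 with 5.31, 5.18 and 5.71 FPKM in young fruit and 28.9, 30.6 and 32.4 in mature fruit. The values of each stage lay close together (log2 fold change 2.48, SE 0.09, adjusted p = 2.23e-10, limma). DN147128_c3_g4 ranked 47 among the MYBs of young fruit and 7 among those of mature fruit. Another MYB3 homolog, DN138619_c0_g2, was low and was called lower (log2 fold change -2.59). It had 0.524, 0.775 and 0.483 FPKM in young fruit and 0, 0 and 0.0462 in mature fruit. The MYB3-like DN143039_c2_g1 was not called (log2 fold change -0.76).

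No other MYB4 homolog was called higher. DN147056_c0_g1 had 5.02, 5.28 and 4.71 FPKM in young and 7.95, 4.07 and 3.84 in mature fruit, with a 95% interval of -0.45 to 0.45. DN138619_c0_g3 was lower in mature fruit without overlap and was not called (log2 fold change -0.96). A further MYB4 homolog moved the other way. DN138607_c0_g1 had 12, 15.6 and 9.93 FPKM in young fruit and 0.566, 0.395 and 0.414 in mature fruit (log2 fold change -4.48, SE 0.16, adjusted p = 1.15e-10, limma). It was highest in stem, at 28.9 FPKM, where DN142862_c0_g1 had 1.75. MYB330 and MYB308 are related repressors known from snapdragon. The MYB330 homolog DN144669_c3_g3 had 4.01, 5.38 and 4.52 FPKM in young fruit and 0.0250, 0.142 and 0.166 in mature fruit, a log2 fold change of -4.55. The MYB308-like DN142694_c0_g3 had 3.58, 3.88 and 2.94 FPKM in young fruit and 0.261, 0.178 and 0.141 in mature fruit, a log2 fold change of -3.62. In both the stages lay far apart, and mature fruit 1 was the lowest for MYB330. A further MYB308 homolog, DN144022_c3_g4, was abundant in both stages, with 49.6, 53.3 and 50.1 FPKM in young and 31.5, 46.6 and 44.9 in mature fruit. It was not called, and its log2 fold change of -0.33 had a 95% interval of -0.66 to -0.01. The MYB6-like DN144339_c1_g4 had 26.8 to 28.2 FPKM in young and 29.7 to 32.4 in mature fruit, with an interval of 0.00 to 0.36.

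Of the 24 repressor homologs 20 were tested, 2 rose (10%) and 6 fell (30%), where all unigenes gave 8.06% and 22.1%, and the median log2 fold change was -0.58. Their summed level was 181, 197 and 179 FPKM in young fruit and 186, 232 and 228 in mature fruit, so that the sum did not follow the count. The MYB4 and MYB3 homologs that rose together made up 115 FPKM of the 215 FPKM mean sum in mature fruit and 31.8 of 186 in young fruit.

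Among the homologs of activators of flavonols and anthocyanins, those called stood below 5 FPKM in every fruit library. MYB12, MYB11 and MYB111 activate flavonol synthesis in Arabidopsis. The MYB12 homolog DN111034_c0_g1, the most abundant MYB of young fruit, had 94.6, 114 and 107 FPKM there and 61.4, 60.9 and 54.4 in mature fruit. The stages did not overlap, but the log2 fold change of -0.83 (95% interval -1.04 to -0.63) missed the threshold on size (adjusted p = 5.50e-06, limma). The MYB12b homolog DN145308_c4_g7 had 2.23, 2.49 and 2.01 FPKM in young and 3.50, 3.08 and 3.26 in mature fruit and was not called (adjusted p = 0.123, limma). The MYB11 homolog DN142862_c4_g4 fell from 1.01, 1.64 and 1.24 FPKM to 0.146, 0.167 and 0.294 (adjusted p = 7.22e-07, limma), and was not called with a pseudocount of 1. Among the fruit libraries DN145308_c5_g1, the MYB111 homolog, was listed in young fruit 3 alone, at 1.12 FPKM. Of these 4 members, all tested, 1 fell (25%, near the 22.1% of all unigenes) and none rose.

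MYB10 switches on anthocyanin synthesis in fruit of apple and strawberry. Its homolog DN109626_c0_g1 had 0, 0 and 0.0549 FPKM in young fruit and 0.781, 0.279 and 0.270 in mature fruit. It rose by 2.11 on the log2 scale (SE 0.36, adjusted p = 0.000272, limma) and stayed below 1 FPKM in every fruit library. With a pseudocount of 1 it was no longer called. DN30159_c0_g1, a further MYB10 homolog, had 0.244, 0.379 and 0.358 FPKM in young and 0.291, 0.144 and 0.140 in mature fruit, and the stages overlapped. Another MYB10 homolog, DN149070_c1_g2, went the other way, with 0.191, 0.123 and 0.102 FPKM in young fruit and 0 in all mature fruit libraries. It was not called (adjusted p = 0.0143, limma). The most abundant member of the group was DN146048_c0_g2 (MYB1), with 7.05, 7.33 and 9.0 FPKM in young and 15.5, 12.8 and 15 in mature fruit. It missed the threshold on size with a log2 fold change of 0.88 (95% interval 0.61 to 1.16, adjusted p = 5.33e-05, limma). Homologs of MYB114, an anthocyanin regulator in Arabidopsis and pear, made up the lower calls. DN147278_c5_g2 fell from 3.33, 4.33 and 2.94 FPKM to 1.43, 0.658 and 0.829. DN145308_c4_g6 had 3.04, 4.72 and 2.96 FPKM in young and 1.84, 1.45 and 1.47 in mature fruit. It was not called with a pseudocount of 1 (log2 fold change -0.80). Without young fruit 2 its log2 fold change was -0.89 and it was not called, and the group then had 1 lower call in place of 3. In all, 8 of 9 members were tested, 1 rose (12.5%) and 3 fell (37.5%), where all unigenes gave 8.06% and 22.1%, and the summed level was 14.2 to 17.7 FPKM in young and 15.5 to 19.8 FPKM in mature fruit.

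Homologs of the secondary wall regulators were low in mature fruit. MYB46 is a master switch of the secondary wall in Arabidopsis. Its homolog DN146433_c2_g3 had 4.68, 4.87 and 5.61 FPKM in young and 0.105, 0.0808 and 0.0802 in mature fruit (log2 fold change -4.77, SE 0.13, adjusted p = 1.35e-11, limma). In stem it stood at 28.3 FPKM. A second MYB46 homolog, DN142862_c4_g3, had 0.628, 0.484 and 0.610 FPKM in young fruit and 0 in all mature fruit libraries, and with a pseudocount of 1 it was not called. DN145308_c1_g1 (MYB86) fell from 13.6, 13.4 and 13.4 FPKM to 3.14, 2.17 and 2.44, and the MYB86-like DN145021_c0_g7 from 9.0, 10.4 and 9.14 to 1.99, 1.01 and 1.65. Of the 5 members, all tested, 4 fell (80%, against 22.1% of all unigenes) and none rose, and the median log2 fold change was -2.59, against -0.12 over all unigenes tested. Summed, the group had 28.1, 29.2 and 28.9 FPKM in young and 5.4, 3.36 and 4.26 FPKM in mature fruit.

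Among the homologs of regulators of trichomes and root hairs, few members carried nearly all of the expression. MYB82 acts in trichome formation in Arabidopsis. The MYB82-like DN146459_c2_g1 had the largest fall of all MYBs, from 24.8, 28.0 and 25.6 FPKM to 0.182, 0.630 and 0.105 (log2 fold change -6.23, SE 0.32, adjusted p = 3.71e-09, limma). The MYB82-like DN148549_c3_g4 had 10.7, 12.4 and 10.2 FPKM in young fruit and 0.319, 0.345 and 0 in mature fruit. Both lay far below young fruit in every mature library. WER sets the fate of root epidermis cells in Arabidopsis. The WER-like DN145308_c4_g5 rose from 0.495, 0.456 and 0.598 FPKM to 2.02, 1.23 and 1.43 (log2 fold change 1.41, SE 0.26, adjusted p = 0.000516, limma), and the WER-like DN140431_c0_g1 fell from 0.780, 0.465 and 0.467 to 0.0470, 0.0534 and 0.210. Neither WER-like unigene was called with a pseudocount of 1. Of 14 members 12 were tested, 1 rose (8.33%) and 3 fell (25%), close to the 8.06% and 22.1% of all unigenes, and without mature fruit 2 the count that rose was 2. The median log2 fold change was only -0.23, while the summed level was 37.2 to 41.6 FPKM in young and 1.99 to 3.37 in mature fruit.

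ETC1 and ETC3 are small single-repeat MYBs that act against trichome formation in Arabidopsis. The ETC1 homolog DN146126_c4_g1 was the runner-up among the MYBs of young fruit, with 86.3, 87.7 and 95.1 FPKM, and had 11.9, 13.1 and 11.7 in mature fruit. All mature libraries lay far below all young ones (log2 fold change -2.86, SE 0.06, adjusted p = 3.19e-12, limma). The ETC3 homolog DN144174_c0_g4 stayed at similar levels, with 5.12, 6.58 and 5.73 FPKM in young and 3.72, 6.95 and 5.71 in mature fruit, where the 95% interval of the log2 fold change was -0.62 to 0.37. Of the 5 tested members 1 fell (20%, close to the 22.1% of all unigenes) and none rose. The other ETC1 homolog named by the rule, DN149700_c2_g2, was called lower without mature fruit 1 (log2 fold change -1.01, adjusted p = 0.00294, limma), and the ETC3 homolog DN149700_c2_g3 was called higher without mature fruit 3 (1.08, adjusted p = 0.00932, limma).

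Most of the tested homologs of MYBs of flower organs fell. MYB21 and MYB108 act in stamen growth and anther opening in Arabidopsis. The MYB21 homolog DN141656_c0_g1 had 2.81, 3.12 and 3.18 FPKM in young fruit and 0.0841, 0 and 0.0759 in mature fruit (log2 fold change -4.41, SE 0.31, adjusted p = 5.81e-08, limma). Its young fruit level was above its mean of 0.990 FPKM in flower. DN146459_c2_g7 (MYB108) fell from 3.89, 3.25 and 4.05 FPKM to 0.899, 0.282 and 0.431, and the MYB108-like DN138619_c0_g1 from 3.45, 4.33 and 5.6 to 1.17, 1.31 and 1.20. The MYB35-like DN146048_c0_g4 was not called, at 6.84, 6.85 and 6.93 FPKM in young and 5.44, 5.99 and 5.0 in mature fruit. Of 9 members 8 were tested, 6 fell (75%, against 22.1% of all unigenes) and none rose, with a median log2 fold change of -1.70. The 3 of the 6 lower members that are not named above had young fruit means below 0.5 FPKM.

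MYB44 modulates abscisic acid and stress responses in Arabidopsis. All 3 homologs had lower values in mature fruit, where 56.8% of all unigenes tested had a log2 fold change below 0. Of the 3, 2 were called lower (66.7%, against 22.1% of all unigenes). The MYB44-like DN144824_c3_g1 fell from 22.3, 20.7 and 19.9 FPKM to 1.47, 0.999 and 1.06 (log2 fold change -4.06, SE 0.15, adjusted p = 1.62e-10, limma). DN99221_c0_g1 fell from 49.3, 49.3 and 48.1 FPKM to 16.1, 13.7 and 12.7. The remaining one, DN143203_c0_g1, had 31.8, 34.1 and 29.2 FPKM in young and 17.6, 17.5 and 18.4 in mature fruit and missed the threshold on size, with a 95% interval of the log2 fold change of -0.96 to -0.70. MYB13 is a stress-related MYB of Arabidopsis. Its homolog DN143182_c1_g1 had 3.69, 17.2 and 17.5 FPKM in young fruit 1, 2 and 3 and 0, 0.840 and 0 in mature fruit. Young fruit 1 was far below the other young libraries but above all mature ones, and the SE of 0.77 was large (log2 fold change -5.64, adjusted p = 3.83e-05, limma). It was the 1 lower call among the 3 stress homologs, all of which were tested (33.3%, against 22.1% of all unigenes).

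MYB1R1 is linked to drought tolerance in potato. The MYB1R1 homolog DN133642_c0_g1 had 59.8, 57.0 and 58.0 FPKM in young fruit and 14.9, 11.1 and 12 in mature fruit (log2 fold change -2.20, SE 0.09, adjusted p = 3.13e-10, limma). The DIVARICATA homolog DN146332_c2_g2, named after a gene of flower asymmetry in snapdragon, had 15.7, 15.2 and 14 FPKM in young and 16.2, 17.3 and 17.4 in mature fruit, with an interval of 0.03 to 0.33. MYB3R proteins act on cell cycle genes. The MYB3R-3 homolog DN144228_c3_g1 was abundant and not called, with 60.4, 51.4 and 59.3 FPKM in young and 71.6, 55.0 and 54.1 in mature fruit and a 95% interval of -0.15 to 0.29. DN148161_c1_g2 (MYB3R-1) had 1.91, 1.12 and 1.94 FPKM in young and 0.558, 1.19 and 0.997 in mature fruit. It was not called with all libraries (log2 fold change -0.81) but was called lower without young fruit 2 (-1.05) or without mature fruit 2 (-1.01). Of the 4 MYB1R1 and DIVARICATA homologs 1 fell (25%, against 22.1% of all unigenes) and none rose. None of the 4 MYB315 homologs was called (limma, adjusted p 0.071 or more), where 30.2% of all unigenes were called in either direction. The one with the highest level, DN131966_c0_g1, had 4.82, 6.98 and 7.09 FPKM in young and 7.71, 7.36 and 8.81 in mature fruit.

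GARP proteins have a single MYB-like domain and include EFM, which delays flowering, and APL, which sets phloem identity, both in Arabidopsis. Both EFM homologs named here fell. DN146463_c1_g1 had 44.0, 32.3 and 39.6 FPKM in young and 18.2, 17.5 and 16.4 in mature fruit (log2 fold change -1.14, SE 0.10, adjusted p = 3.61e-07, limma), and DN127588_c0_g1 had 4.87, 4.30 and 5.2 and then 0.823, 0.241 and 0.244. APL homologs went in different directions. DN132443_c0_g1 fell from 30.1, 27.7 and 31.3 FPKM to 12, 8.88 and 8.89, while DN149346_c2_g2 rose from 0.568, 0.551 and 1.06 to 2.92, 3.33 and 2.98 (log2 fold change 1.99, SE 0.30, adjusted p = 8.29e-05, limma). A further APL homolog, DN139053_c0_g1, had 26.0 to 27.2 FPKM in young and 27 to 29.3 in mature fruit, with an interval of -0.03 to 0.24. Of 15 GARP homologs 14 were tested, 1 rose (7.14%) and 5 fell (35.7%), where all unigenes gave 8.06% and 22.1%, with a median log2 fold change of -0.70.

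**Figure D4:**
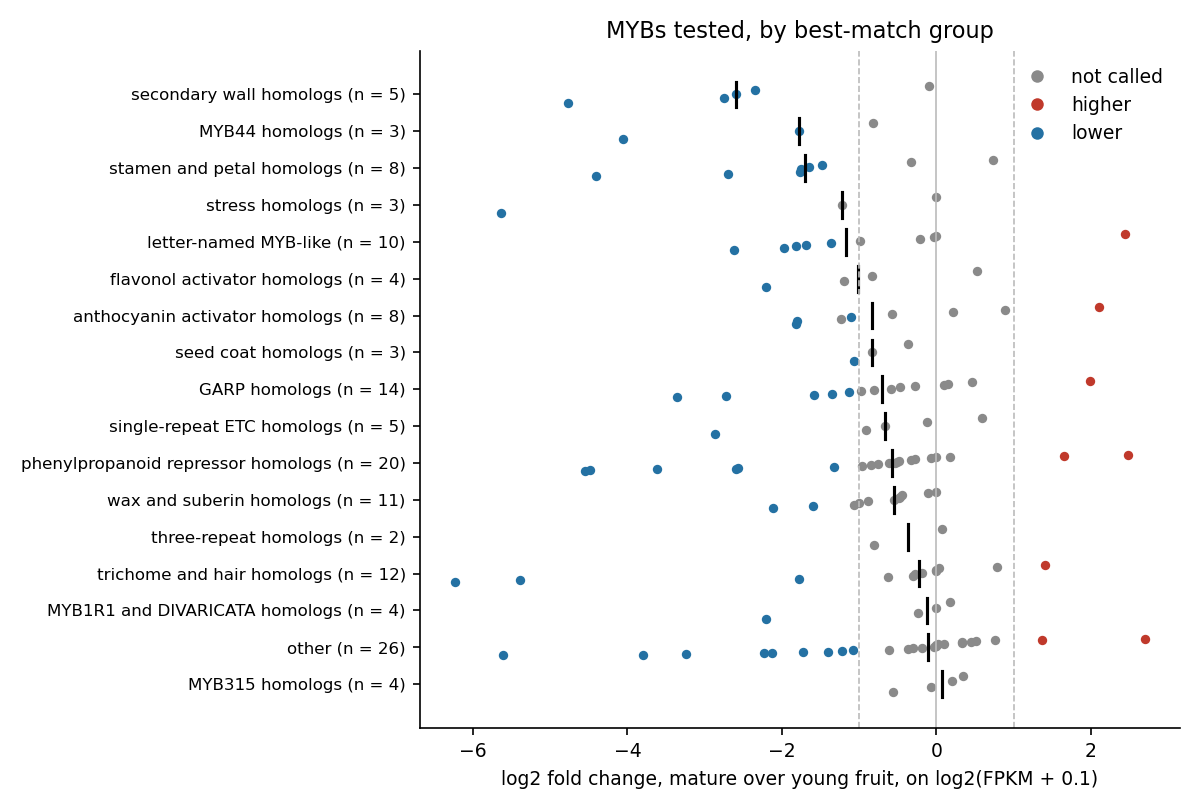
Log2 fold change of mature over young fruit on the log2(FPKM + 0.1) scale for each MYB tested, by the group of its best match, with called MYBs in red (higher) or blue (lower), the others in grey and a black tick at the median of each group. Dashed lines mark a log2 fold change of 1 in either direction, and the secondary wall homologs have the lowest median, -2.59.

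Wax and suberin homologs, among them MYB92, a regulator of suberin in Arabidopsis, had a share of lower calls near that of all unigenes. Of 14 members 11 were tested, 2 fell (18.2%, against 22.1%) and none rose. DN66535_c0_g1 (MYB92) had 19.7, 21.1 and 18.0 FPKM in young and 13.5, 14.3 and 14.5 in mature fruit, a log2 fold change of -0.47 with an interval of -0.64 to -0.31. The MYB306-like DN145149_c1_g1 had 4.57, 4.67 and 3.78 FPKM in young and 3.23, 3.55 and 2.49 in mature fruit. MYB36 sets up the Casparian strip in the root of Arabidopsis. The MYB36-like DN128440_c0_g1 was called lower, from 0.294, 0.239 and 0.646 FPKM in young to 0.0237, 0 and 0 in mature fruit. DN149746_c2_g4, also MYB36-like, had 2.70, 7.14 and 1.98 FPKM in young and 1.92, 1.22 and 1.61 in mature fruit and was not called. The MYB36-like DN149746_c2_g7 had 3.26, 2.46 and 3.45 FPKM in young and 1.57, 1.41 and 1.40 in mature fruit and was not called (adjusted p = 0.0157, limma), but it passed in the fit of the 6 fruit libraries alone (adjusted p = 0.00714, limma), without leaf 1 (adjusted p = 0.00139, limma) and with an adjusted p of up to 0.05 allowed. DN145308_c4_g1, a homolog of the seed coat regulator MYB5, fell from 9.29, 7.69 and 10.4 FPKM to 5.05, 4.29 and 3.56. It lost the call with a pseudocount of 1 (log2 fold change -0.94), without young fruit 3 (log2 fold change -0.97) and without mature fruit 3 (-0.95). It was the 1 lower call among the 3 seed coat homologs tested (33.3%, against 22.1% of all unigenes).

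Several MYBs with strong changes have a best match to which no role was assigned here. Hv1 (DN146053_c2_g1), named after a barley protein, had 22.3, 21.9 and 22.7 FPKM in young and 0.321, 0.445 and 0.318 in mature fruit (log2 fold change -5.61, SE 0.39, adjusted p = 5.78e-08, limma). It was 8.04 FPKM in stem and below 0.5 in leaf and flower. DN145829_c0_g2, the MYB R2R3-like named after a poplar protein, fell from 40.7, 42.8 and 35.9 FPKM to 1.52, 3.29 and 4.18, where mature fruit 1 was the lowest. DN146443_c1_g4 (MYB-related protein 2) fell from 6.09, 5.78 and 6.78 FPKM to 0.604, 0.677 and 0.447. DN145224_c1_g2 (MYB-like protein P) fell from 29.7, 29.7 and 29.1 FPKM to 8.73, 6.93 and 6.80. DN146011_c1_g1, a MYB named after a rose hybrid, fell from 26.6, 29.5 and 27 FPKM to 11.6, 14.2 and 13.4.

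The highest log2 fold change of all MYBs belonged to DN145863_c0_g1 (MYB-related protein 1-like), which had 0.720, 0.427 and 0.327 FPKM in young fruit and 4.12, 3.66 and 3.12 in mature fruit (2.70, SE 0.30, adjusted p = 5.69e-06, limma). DN128191_c0_g1 (MYB-like protein J) rose from 0.273, 0.223 and 0.560 FPKM to 1.73, 2.69 and 2.39 (2.44, SE 0.28, adjusted p = 7.08e-06, limma), although flower had more, at 5.08 FPKM. DN145009_c3_g1, named after a cotton protein, had 0.133, 0.0455 and 0.196 FPKM in young and 0.331, 0.561 and 0.498 in mature fruit. Its call was marginal, with a limma adjusted p of 0.00953, and was lost in 18 of the settings tried. These included leaving out young fruit 1 or 2, mature fruit 2 or 3, leaf 1 or 2, stem 1 or 2 and any flower library, with adjusted p-values of 0.0104 to 0.0439.

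The group to which no role was assigned held 30 members, of which 26 were tested, 2 rose (7.69%) and 9 fell (34.6%), where all unigenes gave 8.06% and 22.1%. Of 11 MYB-like proteins named by a letter 10 were tested, 1 rose (10%) and 5 fell (50%, against 22.1% of all unigenes), with a median log2 fold change of -1.18. Among these, DN143393_c4_g2 (MYB-like protein Q) fell from 5.61, 4.52 and 5.61 FPKM to 1.65, 1.35 and 1.68. DN144656_c3_g2 (MYB-like protein X) had 30.6, 29.6 and 27.5 FPKM in young and 18.1, 14.5 and 12.1 in mature fruit. The stages did not overlap, and its log2 fold change of -0.99 just missed the threshold on size. It was called lower with median-of-ratios scaling (-1.01), without young fruit 3 (-1.03) and without mature fruit 1 (-1.14).

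The rank order of the MYBs changed between the stages. The 10 most abundant made up 44.6% of the summed MYB level in young and 53.1% in mature fruit, and 5 MYBs were among the 10 in both. Of the 15 MYBs in either list, 2 rose, 5 fell and 8 were not called. DN143733_c1_g1, a putative MYB named after Rosa rugosa, had 11.5, 11.1 and 12 FPKM in young and 21.2, 20.5 and 17.6 in mature fruit. Its log2 fold change of 0.76 had an interval of 0.58 to 0.95. The MYB-like protein X homolog DN144159_c2_g1 had 39.4, 36.1 and 40.1 FPKM in young and 38.8, 29.8 and 31.7 in mature fruit, with overlapping stages. Of the 84 MYBs not called, 41 had a mean of at least 1 FPKM in both stages, and in 29 of these the 95% interval of the log2 fold change lay within -1 to 1. Of all 18725 unigenes tested with such means, called ones included, 9810 (52.4%) were not called and had an interval within -1 to 1. The 41 MYBs leave out the called ones, so that this share cannot be set beside 29 of 41.

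**Figure D5:**
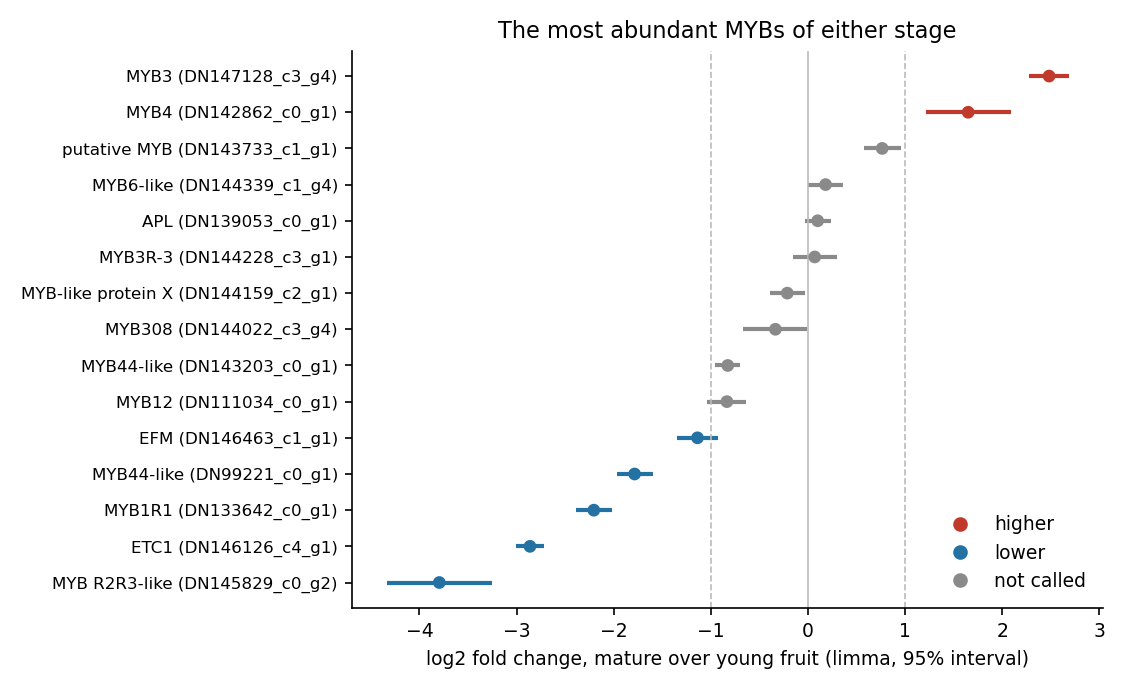
Log2 fold change of mature over young fruit with its 95% interval (limma) for the 15 MYBs that were among the 10 most abundant of young or mature fruit, in red (higher), blue (lower) or grey (not called), with dashed lines at -1 and 1. MYB3 and MYB4 lie above 1, and MYB R2R3-like, ETC1, MYB1R1, one MYB44-like and EFM lie below -1.

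A unigene is one of the genes that the assembler separated within a component, a cluster of contigs that share sequence, so that reads of close copies may be split between members. The listed MYBs fell into 125 components, and 57 MYBs shared theirs with another MYB. In some components the MYB and its neighbours moved alike. In DN144669_c3, which holds MYB330, all unigenes together went from 117 to 14.4 FPKM. In others they did not. The component of the MYB46 homolog DN146433_c2_g3 holds 6 unigenes, whose sum was 63.1 FPKM in young and 268 in mature fruit, opposite to the MYB. The sum over the 7 unigenes of DN145829_c0 was 193 in young and 153 in mature fruit, and that over the 11 of DN145021_c0 was 39.7 and 41.6. For the MYB82-like DN146459_c2_g1 the 8 MYBs of its component summed to 29.9 and 0.865 FPKM, and all 10 unigenes to 35.2 and 13.3. MYB3 (DN147128_c3_g4) lies in a component of 9 unigenes with 70.2 FPKM in young and 114 in mature fruit. MYB4 (DN142862_c0_g1), ETC1, Hv1, MYB1R1 and both MYB44-like unigenes that fell are alone in theirs. Whether reads moved between members was not tested.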

How the data were processed

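RNA-seq libraries of young and mature fruit were compared, and those of leaf, stem and flower entered the fit to estimate the spread. The authors trimmed the reads, assembled them with Trinity, aligned them back with Bowtie2 and estimated abundance with RSEM, and they deposited 1 FPKM value per unigene and library. The submitters' processing notes name Trimmomatic and RSEM, without versions. The methods describe a strand-specific kit, the labels another kit. The files hold no counts, so that the number of reads behind a value is unknown and no counting interval is given. Low values came in steps, where a smaller step stands for more reads. Below 0.15 FPKM the commonest log2 ratio to young fruit 1 was -0.04 and -0.3 in young fruit 2 and 3. It was -0.16, 0 and -0.02 in mature fruit 1, 2 and 3. Only 2.44% to 7.43% of the unigenes compared had the commonest ratio, so that it is a weak guide to the number of reads.

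Log2(FPKM + 0.1) was the response in limma 3.58.1 (R 4.3.3). Each tissue had its own mean, all 15 libraries shared the estimate of the spread, and the prior variance followed the level. A unigene entered the test if at least 3 libraries exceeded 0.1 FPKM. The thresholds, an adjusted p of at most 0.01 over all unigenes tested and a log2 fold change of at least 1, are those of the study. Intervals are 95% intervals. The script was tested on simulated data. Python 3.11.15 served for the tables (pandas 2.3.3 with numpy 2.4.6) and for the plots (matplotlib 3.10.9). MYB names and primers were taken from the study's tables, whose values were not used.

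The members, lists and tests were chosen with earlier results of these data known. The rule for naming took all MYBs called higher and the 15 with the lowest log2 fold change among those called lower without overlap. It added the 10 most abundant of each stage, the 12 with qRT-PCR primers and up to 4 of each group by mean level. These were 78 in all, of which some that were not called or not tested are not described singly. Outside the MYBs it took 2 unigenes that rose and 2 that fell. Further homologs of MYB3, MYB4, MYB10 and MYB36 were described beside those of the rule. The most abundant unigene of each stage was described in addition, without its identifier. The alternatives were other pseudocounts, filters, scaling, thresholds and samples, the replicate number as a block, and each library left out.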

Additional observations from a re-analysis of the deposited data

How the results depend on the processing

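No called result turned its direction. The median log2 fold change over all unigenes tested, -0.12, was 0.03 when at least 1 FPKM in at least 3 fruit libraries was required. Of the MYBs named by the rule, 4 that were not called had values on both sides of 0. These were ETC3 DN144174_c0_g4, MYB3R-3 DN144228_c3_g1 and the MYB315 homologs DN149295_c1_g7 and DN6351_c0_g1. The counts of calls depended on low values and on the threshold. With a pseudocount of 1, 2495 unigenes were higher and 4393 lower, with 5 and 31 MYBs. A test against a log2 fold change of 1 (limma's treat) left 1838 and 7037 unigenes and 3 and 32 MYBs. Requiring at least 1 FPKM in at least 3 libraries gave 2969 higher (10.3%) and 5501 lower (19.1%) of 28830 tested. Requiring it in at least 3 fruit libraries gave 2891 higher (12.4%) and 4568 lower (19.5%) of 23391 tested. The filter read from leaf, stem and flower, chosen after seeing the data, gave 2599 higher and 5360 lower. Where no construction shows it, the cause was not tested. Leaving out 1 library gave 3635 to 4148 higher and 10865 to 11283 lower unigenes, 7 to 8 higher and 49 to 54 lower MYBs, and 27 to 30 MYBs with an interval within -1 to 1. The other settings stayed within 1.5 times of these counts.

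The replicate numbers did not pair the libraries: the correlation of the deviations of same-numbered young and mature libraries was 0.0299, 0.0345 and -0.00971. With the replicate number as a block in a fit of the 6 fruit libraries, 2525 unigenes were higher and 5603 lower, with 5 and 33 MYBs. Of the 74 tested MYBs named by the rule, 64 kept their side of the threshold under this block, 66 with a pseudocount of 1 and 72 with median-of-ratios scaling.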
